A study of Homo sapiens with 6 samples.

Results

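The genes of glycolysis and of the pentose phosphate pathway were compared between 786-O cells with a control guide and 786-O cells in which PLOD2 had been targeted. The set was a fixed list of 32 gene symbols in 18 steps, from glucose uptake to lactate export and from phosphogluconate dehydrogenase to transaldolase, and each symbol matched 1 of the 58395 genes in the deposited table. The 786-O line comes from a human clear cell renal carcinoma, a tumour type in which loss of VHL keeps hypoxia-inducible factors stable. The sgControl group held 3 libraries of cells with a control guide, and the sgPLOD2 group held 3 libraries of cells edited at PLOD2 with CRISPR/Cas9. Both groups were grown in the same serum-containing medium. PLOD2 encodes lysyl hydroxylase 2, a collagen-modifying enzyme. The labels do not say whether the edited cells were a pool or a clone, nor whether the replicates came from separate cultures. The p-values therefore reflect library-to-library spread alone, possibly technical. In bulk RNA, fewer cells that express a gene and less RNA per cell cannot be told apart.

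Glycolysis splits glucose into pyruvate in the cytosol and yields ATP and NADH, and lactate dehydrogenase turns pyruvate into lactate to renew NAD+. The pentose phosphate pathway branches off at glucose-6-phosphate and supplies NADPH and ribose. Most steps are served by several paralogous enzymes that differ in kinetics, regulation and tissue. Clear cell renal carcinoma is known for a high glycolytic rate, and many of these genes are textbook targets of hypoxia-inducible factors.

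PLOD2 mRNA measured 26.8, 25.7 and 21.5 FPKM in the control libraries against 5.98, 10.1 and 6.64 FPKM after editing. Every edited library lay below every control library (limma adjusted p = 0.000509; 2-sided exact permutation p = 0.1, the smallest that 3 against 3 libraries can give). FPKM is fragments scaled by gene length and by the mapped fragments of the library, so levels of different genes can be set side by side. Of 9 markers of the renal carcinoma line, 7 reached 1 FPKM in some library, while CA9 and NDUFA4L2 stayed below it. CDH2 and EPAS1 were called higher and PAX2, VIM, CA12 and CP lower. Their summed level, most of it VIM, was 1133 to 1461 FPKM in sgControl, against 998.5 to 1023 FPKM in sgPLOD2. Markers of endothelium (4 genes) and of other kidney epithelium (7 genes) summed to at most 0.102 FPKM in any library. Of 6 fibroblast markers, 1 reached 1 FPKM: COL1A1 was called higher, the sum was 0.695 to 0.978 FPKM in sgControl, against 3.14 to 3.61 FPKM in sgPLOD2, and DCN was listed at 0. Of 6 leukocyte markers, CD68 fell and CSF1R rose, the sum was 12.1 to 18.9 FPKM in sgControl, against 7.79 to 8.68 FPKM in sgPLOD2, and PTPRC was at or near 0. COL1A1 and CSF1R reached a mean of 1 FPKM over all libraries, needed for a call, only through sgPLOD2, and CP only through sgControl. The calls of COL1A1, CSF1R and CP are thus not independent of that filter. The part of these markers in the results was not tested. Mitochondrial genes took 12.9% of FPKM in sgControl replicate 1 and 6.01% to 7.5% elsewhere.

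The pathway did not move in one direction. Transcripts of glucose transporters, phosphofructokinases and aldolase A fell in sgPLOD2, the enzymes from triosephosphate isomerase to pyruvate kinase were not called, and hexokinase 2, lactate dehydrogenase A and transketolase rose. A gene was called at a limma adjusted p under 0.05 over all 10469 genes whose mean reached 1 FPKM. Of the 32 genes, 27 passed that filter. Of these 27, 6 were called higher and 8 lower, against a background of 29.5% of all tested genes called higher and 23.5% lower. The 14 calls made 51.9% of the tested members, and 52.9% of all tested genes were called, so the share of changed genes was close to the background. The added 1 makes a fold change of a weakly expressed gene smaller than its ratio of FPKM. The median log2 fold change (sgPLOD2 minus sgControl on log2(FPKM + 1)) was 0.08 over the 27 genes and 0.06 over all tested genes. Groups did not overlap in 18 of the 27 (66.7%), against 62.7% of all tested genes.

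**Figure D1:**
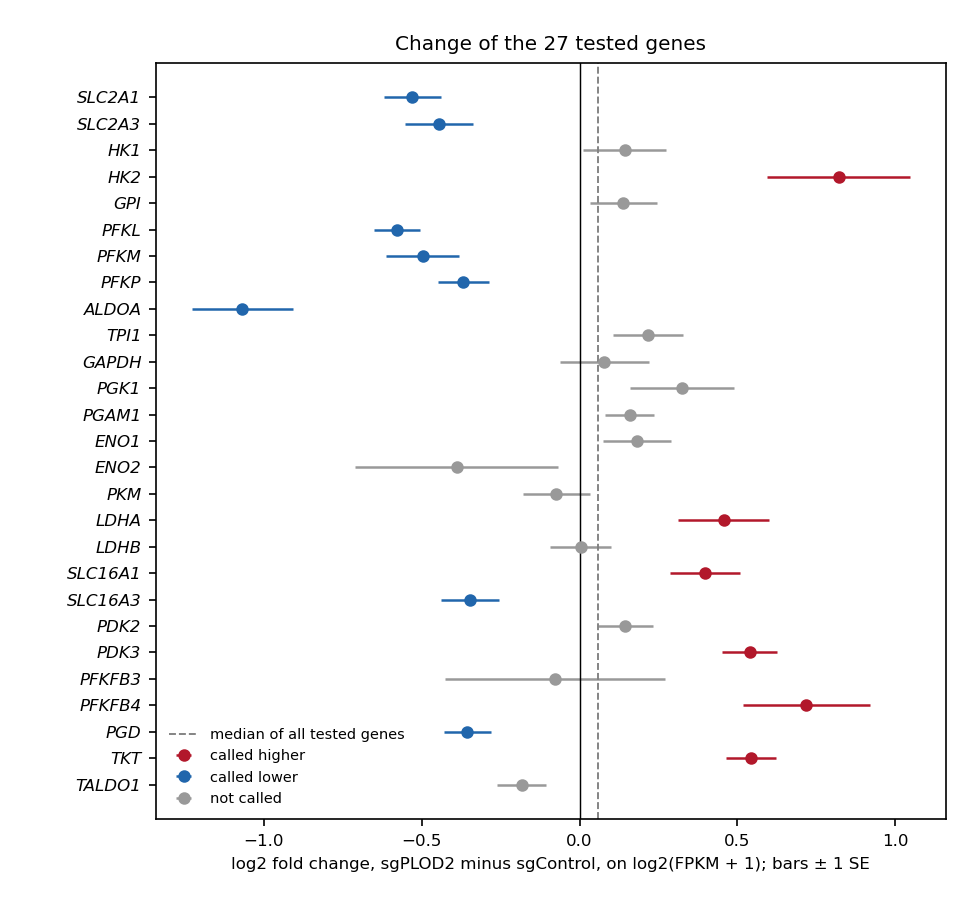
Log2 fold change (sgPLOD2 minus sgControl, log2(FPKM + 1)) of the 27 tested genes in pathway order, with bars of 1 SE, and the median of all tested genes as a dashed line. The 8 genes called lower sit between -1.07 and -0.35, and the 6 called higher between 0.40 and 0.82.

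Levels spanned more than 4 orders of magnitude. GAPDH was the most abundant member at 1846 ± 337 FPKM (SD, n = 3) in sgControl and 1931 ± 109 FPKM in sgPLOD2, followed by ENO1, TPI1 and PGAM1. The paralogs ALDOC, PDK1, PDK4, PFKFB1 and PFKFB2 had means under 1 FPKM over all libraries and were not tested. PFKFB1 lay lowest, between 0.0117 and 0.0652 FPKM, with a mean normalized count of 11.6 in the authors' deposited table, and its groups overlapped.

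**Figure D2:**
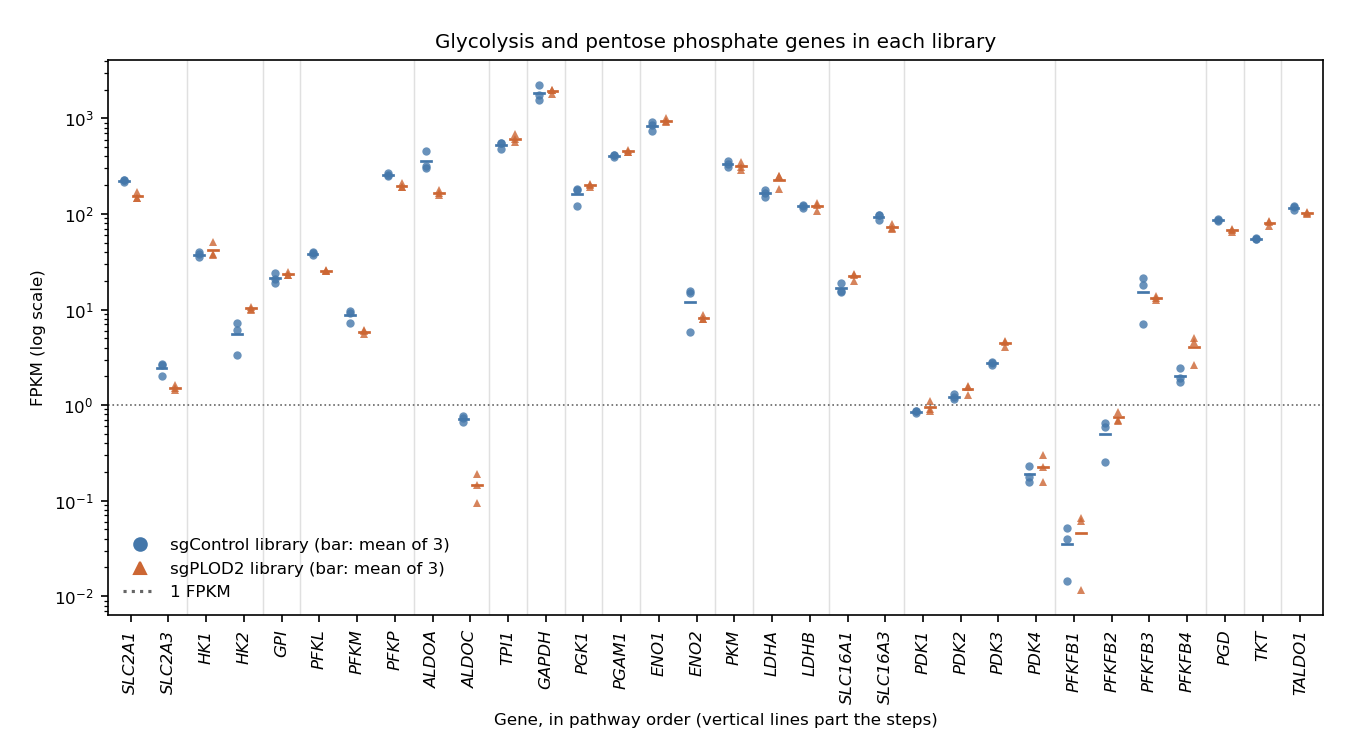
FPKM (log axis) of all 32 genes in each of the 3 sgControl libraries (circles) and 3 sgPLOD2 libraries (triangles), with group means as bars, in pathway order. GAPDH and ENO1 are the highest in both groups, and ALDOC, below the line at 1 FPKM, drops to 20.2% of its control mean.

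Hypoxia-inducible factors bind DNA at the core letters ACGTG or GCGTG, and the promoters were searched for them. RefSeq promoter windows (GRCh38.p14), the 250 bases before a transcription start, were at hand for 29 of the 32 genes, in 58 windows. The letters ACGTG, on either strand, occurred in 34.5% of these windows and in 18.5% of all 35116 windows. ACGTG or GCGTG occurred in 50% and 43.2%. CACGTG, the E-box letters that MYC and related factors bind, contains ACGTG on both strands and occurred in 12.1% and 6.35%. By gene, ACGTG stood in at least 1 window of 3 of 5 genes called higher, 5 of 7 called lower, 7 of 13 not called and 2 of 4 below the filter, and of 21.7% of all 27305 genes in the table. The members have 1 to 7 windows each, which differ in overlap, and a match of letters is not a binding site. With 58 windows in 29 members against 35116 in 27305 genes, a member had more windows in which the letters could occur. The 27305 genes were also not limited to expressed ones, so the shares by gene are not like for like. The following 5 stretches, chosen after the values had been seen, show such letters before a transcription start of genes that rose, fell or were not called. Apart from the stretch of LDHA, they lie inside the gene's listed span, before an internal start. Each is the longest part of its window that no exon of GENCODE 29 covers, 5′ to 3′ on the gene's strand, with every ACGTG or GCGTG of either strand in capitals.
HK2, called higher, chr2:74834920-74835169, plus strand: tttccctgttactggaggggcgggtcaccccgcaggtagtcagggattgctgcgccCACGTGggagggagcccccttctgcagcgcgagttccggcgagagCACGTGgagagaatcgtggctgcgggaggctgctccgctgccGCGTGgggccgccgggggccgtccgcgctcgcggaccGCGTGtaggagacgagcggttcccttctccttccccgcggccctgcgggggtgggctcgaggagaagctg
LDHA, called higher, chr11:18394313-18394387, plus strand: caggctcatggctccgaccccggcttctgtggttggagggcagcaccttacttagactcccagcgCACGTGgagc
SLC16A3, called lower, chr17:82228792-82229031, plus strand: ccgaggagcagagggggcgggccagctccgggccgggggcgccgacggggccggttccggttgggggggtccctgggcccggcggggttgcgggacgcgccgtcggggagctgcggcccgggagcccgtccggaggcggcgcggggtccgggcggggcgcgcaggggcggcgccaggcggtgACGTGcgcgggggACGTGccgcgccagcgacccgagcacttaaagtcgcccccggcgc
ALDOA, called lower, chr16:30065510-30065672, plus strand: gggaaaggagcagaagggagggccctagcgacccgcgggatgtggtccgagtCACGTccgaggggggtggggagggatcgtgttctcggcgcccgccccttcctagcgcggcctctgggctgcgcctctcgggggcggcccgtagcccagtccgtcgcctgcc
PGK1, not called, chrX:78103998-78104173, plus strand: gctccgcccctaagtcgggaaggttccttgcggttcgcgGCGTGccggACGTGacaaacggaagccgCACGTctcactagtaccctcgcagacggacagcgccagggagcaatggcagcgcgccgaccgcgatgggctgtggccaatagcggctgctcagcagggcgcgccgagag
In these 5 stretches, chosen for holding such letters, ACGTG preceded transcription starts in genes of both directions. HK2 and LDHA hold the CACGTG form, SLC16A3 holds 2 copies on the plus strand, ALDOA holds 1 on the minus strand, and PGK1 holds 2 beside a GCGTG. Among the members not printed, the windows of SLC2A1, called lower, and TKT, called higher, hold neither ACGTG nor GCGTG.

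Transcripts of both glucose transporters fell. SLC2A1 encodes GLUT1, the basal glucose transporter of most cultured cells. It was at 228, 225 and 216 FPKM in sgControl, against 146, 147 and 171 FPKM in sgPLOD2. All edited libraries lay below all control libraries, at 69.3% of the control mean (log2 fold change -0.53 ± 0.09 SE, limma adjusted p = 0.00263). SLC2A3, the high-affinity transporter GLUT3, made up only 1.09% ± 0.19 (SD, n = 3) of the pair's FPKM in sgControl and 0.978% ± 0.108 in sgPLOD2, with overlap. It fell as well, from 1.99, 2.64 and 2.70 to 1.43, 1.62 and 1.51 FPKM (log2 fold change -0.45 ± 0.11 SE, limma adjusted p = 0.0113). SLC2A14, a near-identical copy of SLC2A3, reached at most 0.0178 FPKM. Quantile normalization ended the call of SLC2A1 (log2 fold change -0.26, limma adjusted p = 0.0664).

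Among the hexokinases, which trap glucose as glucose-6-phosphate, HK2 rose. HK2 (ENSG00000159399; GRCh38, chromosome 2, 74834127 to 74893359, plus strand) is the inducible form typical of tumours. The HK2 stretch printed above lies before an internal start, not before the listed gene start. HK2 was at 3.34, 7.31 and 6.17 FPKM in sgControl, against 9.99, 10.6 and 10.2 FPKM in sgPLOD2. The edited libraries were tightly grouped above the control libraries, of which replicate 1 was the lowest (log2 fold change 0.82 ± 0.23 SE, limma adjusted p = 0.0194). HK1, the housekeeping form, was at 39.8, 38.0 and 35.1 FPKM and 38.1, 37.2 and 50.6 FPKM and was not called. HK2 thus went from 13.0% ± 4.54 to 19.9% ± 2.86 of the pair's FPKM (SD, n = 3 each), without overlap. Without sgControl replicate 1 the difference in share was 4.35 percentage points in place of 6.95, and the log2 fold change of HK2 was 0.54 (limma adjusted p = 0.00368). The pair leaves out HKDC1, a hexokinase-like gene that was above HK2 in each control library, at 8.17, 13.1 and 11.8 FPKM. HK2 lost its call without sgPLOD2 replicate 2 (limma adjusted p = 0.0604) or 3 (0.0568), with no filter on low values (0.0609) and after correction for gene GC content and length (0.60, adjusted p = 0.0661). The antisense gene AC019069.1 overlaps HK2 exons at a mean of 2.32 FPKM, and reads of both cannot be told apart without strand. GPI, the isomerase that follows, was at 21.4 ± 2.70 and 23.5 ± 1.16 FPKM (SD, n = 3 each) and was not called, except after subtraction of chromosome medians (log2 fold change 0.31, limma adjusted p = 0.0451).

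All 3 phosphofructokinase genes, whose product carries out the committed step of glycolysis, were called lower. PFKP, the platelet-type subunit and the main form here, was at 247, 268 and 253 FPKM in sgControl, against 193, 192 and 209 FPKM in sgPLOD2. PFKL, the liver-type subunit, went from 38.7, 36.9 and 39.5 to 25.0, 25.1 and 26.0 FPKM. PFKM, the muscle-type subunit, went from 7.25, 9.65 and 9.30 to 6.06, 5.61 and 5.89 FPKM. In each of the 3 genes the groups stood apart. Their log2 fold changes were -0.37 ± 0.08, -0.58 ± 0.07 and -0.50 ± 0.12 (SE), with limma adjusted p of 0.00769, 0.000788 and 0.0101. Their summed level fell to 0.757 of control, and PFKP went from 84.4% ± 0.69 to 86.4% ± 0.35 of it. PFKP lost its call with quantile normalization (-0.07, limma adjusted p = 0.583), with equal library totals (-0.24, 0.0701) and after correction for GC and length (-0.14, 0.203), and PFKM with equal library totals (-0.38, 0.0505). PFKM overlaps exons of the antisense gene SENP1, at a mean of 2.37 FPKM, and without strand their reads cannot be told apart.

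The enzymes that make or break down fructose-2,6-bisphosphate, the activator of phosphofructokinase, moved differently from each other. PFKFB4 was at 1.73, 2.44 and 1.92 FPKM in sgControl, against 4.59, 2.63 and 5.04 FPKM in sgPLOD2, and replicate 2 of sgPLOD2 stood just above the highest control (log2 fold change 0.72 ± 0.20 SE, limma adjusted p = 0.0209). PFKFB4 shares exon sequence on the same strand with UCN2, which had 5.90 to 7.35 FPKM in sgControl, against 9.96 to 11.4 FPKM in sgPLOD2. The call of PFKFB4 was lost without sgControl replicate 3 (limma adjusted p = 0.0553), sgPLOD2 replicate 1 (0.0668) or sgPLOD2 replicate 3 (0.0722), with quantile normalization (0.0595), with no filter (0.0637) and after subtraction of chromosome medians (0.39, adjusted p = 0.155). PFKFB3, the form with the strongest kinase activity, was at 7.05, 21.3 and 17.9 FPKM in sgControl, against 13.2, 12.7 and 13.8 FPKM in sgPLOD2. The control libraries lay on both sides of the edited ones, and PFKFB3 was not called (limma adjusted p = 0.867). Without sgControl replicate 1, PFKFB3 was called lower (log2 fold change -0.53, limma adjusted p = 0.00505). PFKFB2 was at 0.254, 0.654 and 0.589 FPKM and 0.689, 0.845 and 0.703 FPKM.

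Aldolase fell furthest of all steps by summed level, to 0.467 of control. ALDOA (ENSG00000149925; GRCh38, chromosome 16, 30064164 to 30070457, plus strand), which cleaves fructose-1,6-bisphosphate in most tissues, was at 454, 302 and 315 FPKM in sgControl, against 166, 158 and 177 FPKM in sgPLOD2. Each edited library had less than any control library, of which replicate 1 was the highest (log2 fold change -1.07 ± 0.16 SE, limma adjusted p = 0.00157). The deposited table also listed AC093512.2 (ENSG00000285043), a protein-coding gene model on the same strand that shares ALDOA exons, at 80.5, 118 and 142 FPKM in sgControl, against 11.8, 10.9 and 12.1 FPKM in sgPLOD2. Reads of shared exons could have been assigned to either, so the values of ALDOA alone are uncertain. The sum of both was 470 ± 58.2 FPKM in sgControl, against 179 ± 10.1 FPKM in sgPLOD2 (SD, n = 3 each), a ratio of 0.380. ALDOC (ENSG00000109107; chromosome 17, 28573115 to 28576948, minus strand), the brain-type aldolase and a known hypoxia-responsive gene, was near absent at 0.768, 0.724 and 0.659 FPKM and dropped further to 0.147, 0.191 and 0.0957 FPKM. It was below the filter, and the authors' deposited table gave it a log2 fold change of -2.39 with an adjusted p of 6.32e-13.

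The middle of the pathway, from triose phosphates to pyruvate, was not called in any gene. TPI1, which interconverts the triose phosphates, was at 553, 475 and 555 FPKM in sgControl, against 603, 560 and 680 FPKM in sgPLOD2. PGK1, which makes the first ATP after aldolase, was at 121, 179 and 184 FPKM and 204, 190 and 202 FPKM. PGAM1, the mutase, was at 392, 410 and 417 FPKM and 471, 441 and 450 FPKM. In these 3 genes every edited library exceeded every control library, at 112% to 123% of the control mean, but limma adjusted p was 0.135, 0.134 and 0.123. The 123% is that of PGK1, whose sgControl replicate 1 lay well below the other control libraries. Its log2 fold change of 0.32 ranged from 0.13 to 0.43 with single libraries left out. ENO1, the main enolase, was at 839 ± 94.1 and 949 ± 47.2 FPKM and PKM, pyruvate kinase, at 332 ± 25.8 and 316 ± 32.3 FPKM (SD, n = 3 each), and both overlapped between groups. PKM, the gene of the M1 and M2 splice forms, is given here as a gene total. GAPDH, which oxidises glyceraldehyde-3-phosphate and often serves as a reference gene, had a log2 fold change of 0.08 ± 0.14 (SE, limma adjusted p = 0.660) that was -0.02 under median-of-ratios scaling and 0.41 under quantile normalization. The neuronal enolase ENO2 was at 5.80, 14.8 and 15.5 FPKM in sgControl, against 8.03, 7.98 and 8.71 FPKM in sgPLOD2. As in PFKFB3, sgControl replicate 1 alone lay below the edited libraries, and without it ENO2 was called lower (log2 fold change -0.80, limma adjusted p = 0.000524).

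Calls in this stretch depended on scaling. TPI1, PGAM1 and ENO1 were called higher with equal library totals (limma adjusted p = 0.0208, 0.0203 and 0.0141) and with quantile normalization (0.0145, 0.0168 and 0.00381), which also called GAPDH (0.00188) and PGK1 (0.0258). After correction for GC and length, TPI1 (log2 fold change 0.54), GAPDH (0.42) and PGAM1 (0.33) were called higher too. Pseudogenes named after TPI1 summed to 5.54% to 6.38% of its FPKM and those of GAPDH to 0.709% to 0.895%, so some reads of these genes may have been assigned to copies.

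**Figure D3:**
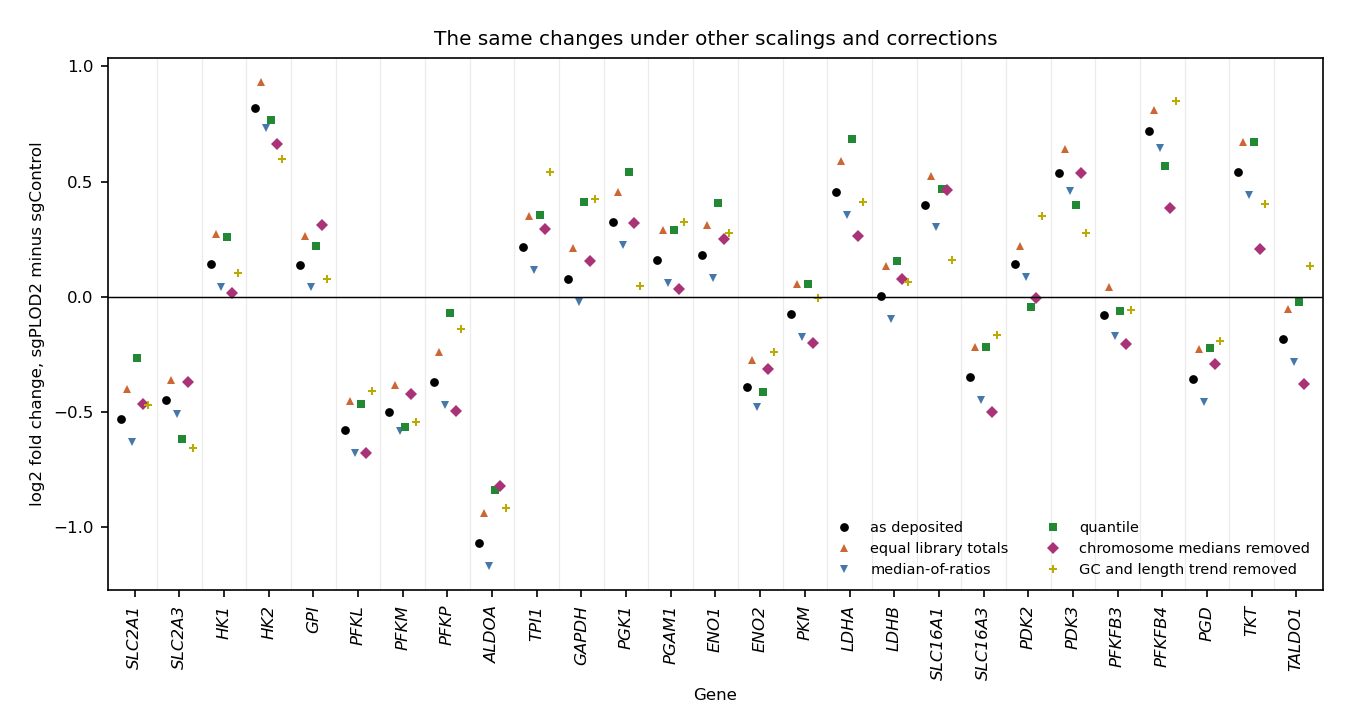
Log2 fold change of each tested gene (sgPLOD2 minus sgControl) as deposited and under 5 other scalings or corrections, each with its own symbol. SLC2A1, PFKL and ALDOA stay below 0 and HK2, LDHA, PDK3 and TKT above 0 under all 6, while GAPDH, PKM, LDHB, PDK2, PFKFB3 and TALDO1 cross it.

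At the end of the pathway, the pyruvate-reducing form of lactate dehydrogenase rose. LDHA (ENSG00000134333; GRCh38, chromosome 11, 18394560 to 18408425, plus strand) was at 150, 177 and 168 FPKM in sgControl, against 251, 252 and 182 FPKM in sgPLOD2, with sgPLOD2 replicate 3 close to the highest control (log2 fold change 0.46 ± 0.14 SE, limma adjusted p = 0.0323). LDHB, which favours lactate oxidation, was at 120 ± 5.08 and 121 ± 11.7 FPKM (SD, n = 3 each) and was not called. LDHA went from 57.8% ± 2.80 to 65.3% ± 2.13 of their summed FPKM, without overlap. Its call was lost without sgControl replicate 1 (limma adjusted p = 0.0687) or 3 (0.0687), without sgPLOD2 replicate 1 (0.0994) or 2 (0.109), with no filter (0.0851), with median-of-ratios scaling (0.0647), after correction for GC and length (0.0528) and after subtraction of chromosome medians (0.26, adjusted p = 0.170). The authors' deposited table gave LDHA an adjusted p of 0.0694.

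The lactate carriers moved apart. SLC16A1 encodes MCT1, which carries lactate both ways, and was at 15.7, 18.9 and 15.4 FPKM in sgControl, against 23.1, 23.6 and 19.9 FPKM in sgPLOD2, without overlap (log2 fold change 0.40 ± 0.11 SE, limma adjusted p = 0.0207). SLC16A3 encodes MCT4, the exporter of glycolytic cells, and was at 97.2, 98.2 and 86.0 FPKM and 79.4, 69.6 and 71.6 FPKM, lower in every edited library (log2 fold change -0.35 ± 0.09 SE, limma adjusted p = 0.0173). SLC16A1 therefore rose from 15.1% ± 1.12 to 23.2% ± 1.89 of the pair (SD, n = 3 each), but SLC16A3 remained the more abundant in all libraries. SLC16A1 lost its call without sgControl replicate 3 (limma adjusted p = 0.0698), sgPLOD2 replicate 1 (0.0675) or 2 (0.0756) and after correction for GC and length (0.16, adjusted p = 0.269). SLC16A3 shares exon positions with the antisense gene CSNK1D, at 14.9 to 16.1 FPKM in the control libraries and 11.3 to 11.7 FPKM in the edited ones, with the same limit. SLC16A3 lost its call without sgControl replicate 2 (0.0504), sgPLOD2 replicate 2 (0.0677) or 3 (0.0561), with equal library totals (0.0827), with quantile normalization (0.0924) and after correction for GC and length (-0.16, adjusted p = 0.188).

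The pyruvate dehydrogenase kinases, which block the entry of pyruvate into the citric acid cycle, were weakly expressed, and PDK3 rose. PDK3 was at 2.75, 2.84 and 2.63 FPKM in sgControl, against 4.54, 4.70 and 4.06 FPKM in sgPLOD2, so the groups were well apart (log2 fold change 0.54 ± 0.09 SE, limma adjusted p = 0.00222). It grew from 54.6% ± 0.39 to 62.6% ± 2.93 of the summed FPKM of the 4 kinases (SD, n = 3 each). PDK2 was at 1.31, 1.21 and 1.17 FPKM and 1.28, 1.55 and 1.58 FPKM and was not called, except after correction for GC and length (0.35, limma adjusted p = 0.0152). PDK1, the classical HIF-responsive kinase, was at 0.821 to 0.872 FPKM and 0.864 to 1.10 FPKM, and PDK4 reached at most 0.300 FPKM, and in both the groups overlapped.

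**Figure D4:**
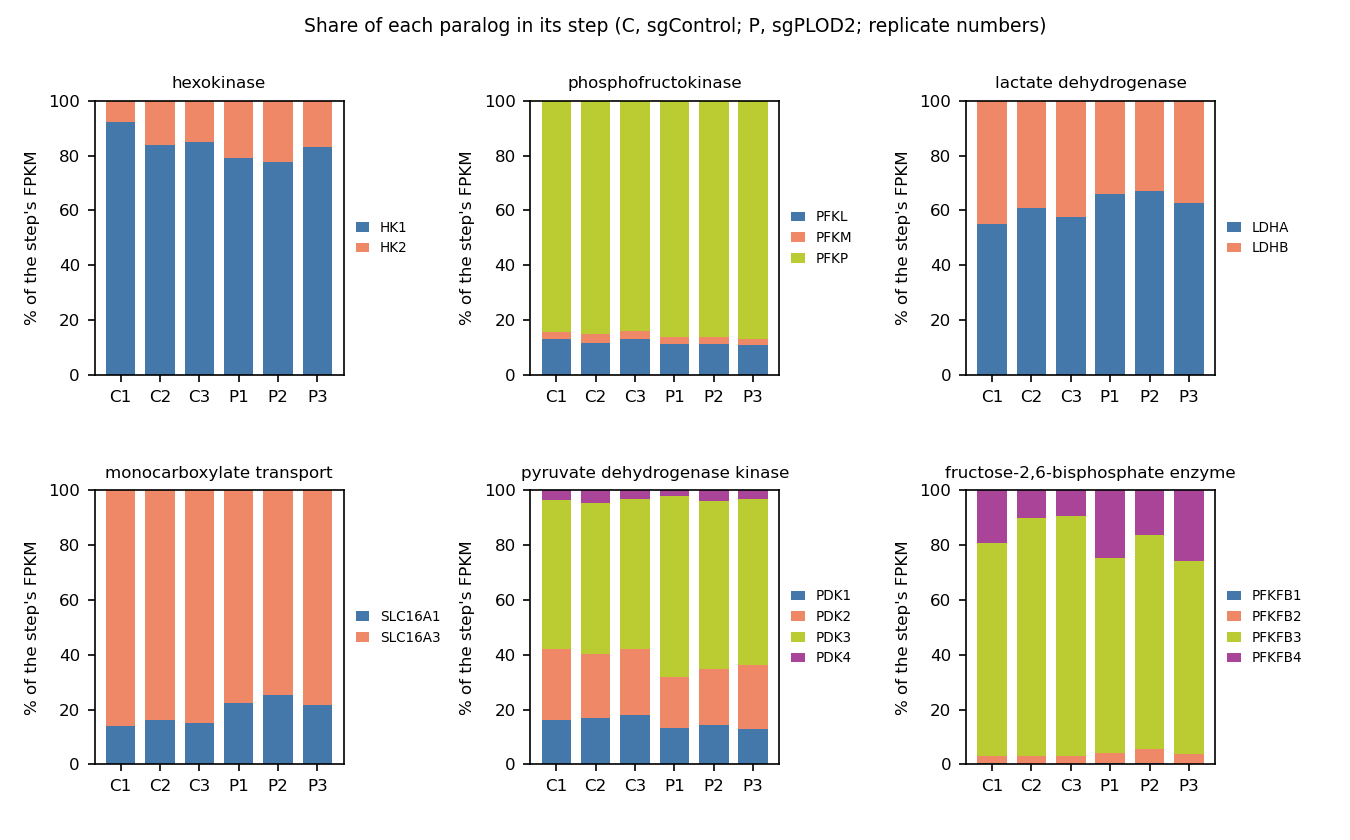
Share of each paralog in the summed FPKM of its step (percent, bars from 0 to 100) in sgControl replicates 1 to 3 (C1 to C3) and sgPLOD2 replicates 1 to 3 (P1 to P3), for 6 steps. HK2, LDHA, SLC16A1 and PDK3 take a larger share in every sgPLOD2 library than in any sgControl library.

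In the pentose phosphate pathway, PGD of the oxidative arm fell and TKT of the non-oxidative arm rose. PGD, the second NADPH-producing dehydrogenase of the oxidative arm, was at 86.9, 85.1 and 87.7 FPKM in sgControl, against 67.6, 64.5 and 70.2 FPKM in sgPLOD2 (log2 fold change -0.36 ± 0.07 SE, limma adjusted p = 0.00616). TKT, transketolase, which links the pathway back to glycolysis, was at 54.1, 54.1 and 56.0 FPKM and 81.5, 75.0 and 84.4 FPKM (log2 fold change 0.54 ± 0.08 SE, limma adjusted p = 0.00136). TALDO1, transaldolase, was at 122, 110 and 119 FPKM and 105, 102 and 100 FPKM. The groups were apart in all 3 genes, but TALDO1 was not called (limma adjusted p = 0.0851), though it was with median-of-ratios scaling (0.0264) and after subtraction of chromosome medians (-0.38, 0.00717). TKT lies on chromosome 3, whose tested genes had a median log2 fold change of 0.33, and after subtraction of chromosome medians TKT was at 0.21 (limma adjusted p = 0.0624). PGD lost its call after correction for GC and length (-0.19, limma adjusted p = 0.0728). Of 14 other genes of the pathway, 12 were tested, with 2 higher, 1 lower and a median of 0.02. The sedoheptulose kinase SHPK (4.49 ± 0.26 to 6.95 ± 0.35 FPKM, SD, n = 3 each) and the phosphoribosyl pyrophosphate synthetase PRPS1 (45.7 ± 5.53 to 59.1 ± 2.61 FPKM) rose and the ribokinase RBKS fell (2.87 ± 0.33 to 2.13 ± 0.20 FPKM). RBKS lost its call with the replicate block (limma adjusted p = 0.0718), with no filter (0.0672), with equal library totals (0.118, or 0.0703 without mitochondrial and ribosomal protein genes) and after correction for GC and length (0.0502), and PRPS1 with median-of-ratios scaling (0.0763). Without single libraries, RBKS was not called without sgControl replicate 3 or any sgPLOD2 library (0.0526 to 0.119), and PRPS1 without sgPLOD2 replicate 1 or 2 (0.0712 and 0.0655).

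The authors' deposited table, a separate test of the same libraries, called 4 of the 32 genes higher and 9 lower, against 24.2% and 26.6% of the genes tested here (50.8% in all) and 18.5% and 17.0% of all genes it gives an adjusted p (35.5% in all). Of the 14 calls, 12 were shared with it in the same direction. LDHA and SLC16A1 were called only by limma and ALDOC only in the authors' deposited table.

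The counts in the following lists stand against 29.5% of all tested genes called higher and 23.5% lower. A gene near the filter may have passed it only through the group where it is high. Of 22 other glycolytic and gluconeogenic enzymes, 10 were tested and 12 lay below the filter. Of the 10, 1 rose, 2 fell and the median was -0.07. HKDC1 fell to 3.48 ± 0.16 FPKM (SD, n = 3), 31.7% of its control mean (limma adjusted p = 0.000524) and the phosphoglucomutase PGM1 from 40.1 ± 1.49 to 32.8 ± 1.19 FPKM, whereas pyruvate carboxylase PC rose from 1.91 ± 0.02 to 2.56 ± 0.18 FPKM. PC lost its call without sgControl replicate 3 (0.0624), sgPLOD2 replicate 1 (0.0790) or 3 (0.0675), and PGM1 without sgControl replicate 3 (0.0671) or sgPLOD2 replicate 2 (0.0681; all limma adjusted p). PC was also not called under quantile normalization (0.253), under median-of-ratios scaling (0.0633) or after subtraction of chromosome medians (0.10, limma adjusted p = 0.360). PGM1 was not called with equal library totals (-0.15, limma adjusted p = 0.173; 0.0580 without mitochondrial and ribosomal protein genes), with quantile normalization (0.0840) or after subtraction of chromosome medians (0.0507). Of 17 other sugar and lactate carriers 4 were tested: SLC2A10 fell from 4.14 ± 0.70 to 0.783 ± 0.131 FPKM and SLC2A6 from 28.1 ± 2.53 to 20.1 ± 0.08 FPKM. Of the 4, 0 rose (median -0.30; also 0 at an unadjusted limma p under 0.05). Among the 13 below the filter, which were not tested, some lay apart between the groups, in either direction. SLC2A10 passed the filter only through sgControl. SLC2A6 was not called after correction for GC and length (-0.09, limma adjusted p = 0.419).

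Components of pyruvate entry into mitochondria moved both ways. Of 10 such genes 9 were tested, with 3 higher, 1 lower and a median of 0.18. The pyruvate dehydrogenase subunits PDHX (2.58 ± 0.40 to 7.21 ± 1.49 FPKM, SD, n = 3 each), DLAT (7.31 ± 0.76 to 11.7 ± 0.66 FPKM) and PDHB (7.01 ± 1.08 to 11.1 ± 0.69 FPKM) rose, and the carrier subunit MPC2 fell (29.5 ± 2.50 to 17.8 ± 1.85 FPKM, limma adjusted p = 0.00167). PDHB, on chromosome 3, lost its call after subtraction of chromosome medians (limma adjusted p = 0.106).

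Of 18 glycogen genes 15 were tested, 5 rose and 2 fell, with a median of 0.14. Of the 5, 1 passed the filter only through sgPLOD2. The branching enzyme GBE1 rose from 4.70 ± 0.86 to 13.6 ± 1.09 FPKM and the liver phosphorylase PYGL from 24.0 ± 2.93 to 42.3 ± 1.93 FPKM (SD, n = 3 each). PHKG2, a phosphorylase kinase subunit, fell from 4.15 ± 0.37 to 2.31 ± 0.15 FPKM. PYGL, on chromosome 14 with a median of 0.54, lost its call after subtraction of chromosome medians (0.25, limma adjusted p = 0.0876).

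Of 14 genes of the hexosamine, polyol and glycerol-3-phosphate branches 12 were tested, 6 rose and 2 fell, with a median of 0.29. The mitochondrial glycerol-3-phosphate dehydrogenase GPD2 rose from 0.411 ± 0.299 to 3.16 ± 0.43 FPKM, GPD1L from 0.667 ± 0.279 to 2.77 ± 0.11 FPKM and the O-GlcNAc transferase OGT from 2.24 ± 1.14 to 7.11 ± 0.39 FPKM (SD, n = 3 each). GPD2 and GPD1L passed the filter only through sgPLOD2, so the count of 6 is not independent of the filter. Aldose reductase AKR1B1, among the most abundant genes of these lists, fell from 610 ± 52.4 to 373 ± 12.0 FPKM (limma adjusted p = 0.000885).

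Of 19 regulators linked to these genes 15 were tested, 7 rose and 0 fell (also 0 at an unadjusted limma p under 0.05), with a median of 0.44. The 7 include VHL, TXNIP and ARRDC4, which are not transcription factors. HIF1A was at 0.311, 0.539 and 0.409 FPKM in sgControl, against 39.1, 38.4 and 35.6 FPKM in sgPLOD2. HIF1A and ARRDC4 passed the filter only through sgPLOD2, so the count of 7 is not independent of the filter. EPAS1, the gene of HIF-2α, rose from 12.0 ± 1.18 to 24.6 ± 1.49 FPKM (SD, n = 3 each; limma adjusted p = 0.000282), and ARNT2 and the glucose-responsive gene ARRDC4 rose by 0.76 and 0.73 on the log2 scale. VHL rose from 3.68 ± 0.52 to 5.61 ± 0.61 FPKM, but after subtraction of chromosome medians its limma adjusted p was 0.273. MYC overlapped between the groups and was not called.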

How the data were processed

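RNA of 3 sgControl and 3 sgPLOD2 libraries of 786-O cells was sequenced. The submitters' processing notes name CASAVA, HISAT2 2.1.0, StringTie 1.3.4 and GRCh38 but give them no role. For the strand setting and the annotation, nothing is given in the sources used here. The authors deposited 1 FPKM value per gene and library, per the file headers, with no scaling between libraries recorded. The same deposited table holds the authors' own comparison: p-values, a test score, a log2 fold change and its error, and a mean normalized count (a signal value). FPKM sums were 229485 to 268612 per library. Relative size factors, read from the steps of that mean in genes found in a single library (100% of values within 0.01 of a whole number), differed by up to 1.18 times. Absolute depth is unknown, and the number of libraries limits precision.

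Tests used limma 3.58.1 (R 4.3.3; eBayes with trend) on log2(FPKM + 1), over genes whose mean reached 1 FPKM, 2-sided, with Benjamini-Hochberg adjustment over all of them. PLOD2 was also tested with scipy 1.17.1. Simulated data for this comparison held 10469 genes, of which 67, 67 and 66 were given log2 changes of 0.5, 1 and 2. Of these, 35.8%, 80.6% and 92.4% were recovered, and 4.79% of calls were false. In the libraries themselves 5540 genes were called, and recovery with that many changed genes was not tested. The members and lists were chosen with earlier results of these data known. All members were named, with up to 4 called genes of the smallest adjusted p per other list, and PLOD2, HIF1A, EPAS1, VHL and MYC. SLC2A14, TXNIP and genes that overlap members were named after their values had been seen. Some genes that this rule names are not reported here. Alternatives tried were no filter or a minimum of 5 FPKM, pseudocounts of 0.1 and 0.5, quantile normalization, median-of-ratios scaling, equal library totals (also leaving mitochondrial and ribosomal protein genes out of them), other variance models, a replicate block, correction of fold changes for transcript length and GC content with a smooth curve (mgcv 1.9.3; both known for 99.9% of tested genes), removal of chromosome medians, and leaving out each library. Chromosomes, exons and transcripts came from GENCODE 29, which held 58275 identifiers, 49000 with the same gene start.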

Additional observations from a re-analysis of the deposited data

How the results depend on the processing

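Of 8 members called lower, SLC2A3, PFKL and ALDOA kept their direction and call under every alternative in which they were tested, and of 6 called higher, 0 did. SLC2A3, at a mean of 1.98 FPKM, was not tested at a minimum of 5 FPKM. HK1, PKM and LDHB stayed uncalled throughout. Over all genes 5540 were called, 3010 at a minimum of 5 FPKM, and 4179 to 5853 with single libraries left out. Members called higher numbered 6, but 3 with no filter and 10 with quantile normalization, and 3 to 6 with single libraries left out. Members called lower numbered 8, but 5 under each of equal library totals, quantile normalization and the correction for GC and length (with or without the block), and 7 to 10 with single libraries left out. The members' median log2 fold change of 0.08 became 0.0033 at a minimum of 5 FPKM, 0.21 with equal library totals, 0.17 without mitochondrial and ribosomal protein genes in them, -0.021 under median-of-ratios scaling, 0.16 under quantile normalization, 0.016 after subtraction of chromosome medians, and 0.0547 to 0.13 with single libraries left out. Equal library totals moved the median of all genes from 0.06 to 0.17 and the share of calls that were higher from 55.7% to 67.2%, against 46.8% with median-of-ratios scaling, 45.2% at the 5 FPKM minimum and 49.9% under quantile normalization. Deviations of same-numbered libraries had correlations of 0.01, 0.14 and -0.05, and those of differently numbered libraries ran from -0.143 to 0.141. With 3 libraries per group this cannot decide whether same-numbered libraries were paired, and the labels state no pairing. With the replicate block 5319 genes were called, with 6 members higher and 8 lower, and PDK3 lost its call when the correction for GC and length was added to it (limma adjusted p = 0.0566). No result reversed while called.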

Other observations

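MYC was at 9.98, 0.776 and 0.742 FPKM in sgControl replicates 1 to 3 and at 12.5, 1.01 and 24.4 FPKM in sgPLOD2 replicates 1 to 3. The range within each group was wider than the difference between the group means, 3.83 and 12.6 FPKM (limma adjusted p = 0.283).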
